A study of Mus musculus with 7 samples.

Results

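The MAP kinase phosphatases of the dual specificity phosphatase (DUSP) family were followed here as 8 genes, Dusp1, Dusp4, Dusp5, Dusp6, Dusp7, Dusp8, Dusp10 and Dusp16. They were found by gene symbol among the 53819 rows of a table of estimated counts, and all 8 passed the filter on low counts, with 14935 genes tested. The samples were quadriceps, the large thigh muscle, of wild type male C57BL/6J mice, in 3 AAV8-IGFBP1 and 4 AAV8-Null libraries. AAV8-IGFBP1 mice had been given AAV8-Alb-IGFBP1, and AAV8-Null mice the control vector AAV8-Alb-Null. Both groups therefore carried an AAV8 vector, made from an adeno-associated virus with tropism for liver. It was injected at 8 weeks of age in 200 µl through a tail vein, and the muscle was taken 54 days later. Both construct names hold Alb, the symbol of the albumin gene of hepatocytes, and muscle was not the tissue the vector was aimed at. The comparison asked how a liver-directed source of IGFBP1, a secreted protein that binds insulin-like growth factors, is followed by differences in muscle transcripts. The labels number the libraries but do not say that each came from a separate mouse, so p-values measure the spread between these libraries, which may be technical.

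MAP kinases (ERK, JNK and p38) carry signals from growth factor receptors and from cell stress. They are switched on when a kinase phosphorylates a threonine and a tyrosine in their activation loop, and a DUSP phosphatase switches them off by removing both phosphates. The family is usually divided by location and target. Dusp1, Dusp2, Dusp4 and Dusp5 encode nuclear enzymes whose transcripts are induced quickly by the signals they end. Dusp6, Dusp7 and Dusp9 encode cytoplasmic enzymes that prefer ERK, and Dusp8, Dusp10 and Dusp16 encode enzymes that prefer JNK and p38. In mouse skeletal muscle, the Dusp1 product (MKP-1) and the Dusp10 product (MKP-5) have been studied for their part in metabolism and in regeneration after injury.

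The 8 genes were named with earlier results of this same comparison in view, so their fold changes and adjusted p-values are given as a description and support nothing beyond it. The choice left out Dusp2 and Dusp9, the remaining catalytic members. Dusp2 was measured at 0.261, 0.339 and 0.288 CPM (12 to 14 counts) in AAV8-IGFBP1 replicates 1, 2 and 3, against 0.656, 0.348, 0.655 and 0.560 CPM (18 to 33 counts) in AAV8-Null replicates 1 to 4. CPM (counts scaled to library totals, after TMM) are the levels used throughout. The Dusp2 groups did not overlap, but AAV8-IGFBP1 replicate 2 and AAV8-Null replicate 2 were nearly level, and the gene did not pass the test (log2 fold change -0.90, SE 0.34, adjusted p = 0.324 by edgeR). Dusp9 had 2 counts in AAV8-IGFBP1 replicate 2, 2 counts in AAV8-Null replicate 2 and 0 in the other 5 libraries, where a count of 0 allows up to 0.0596 to 0.0786 CPM. Dusp5, the lowest of the 8 genes, had 8 to 64 counts.

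The library totals were 39927112 to 46197173 counts in AAV8-IGFBP1 and 38947453 to 51210360 in AAV8-Null. Fast fibre markers, which define this muscle, were present for 9 of 9 genes in every library, with a summed level of 147000 to 158000 CPM in AAV8-IGFBP1 and 129000 to 149000 CPM in AAV8-Null. Igfbp1 itself was measured at 4.39, 34.5 and 3.14 CPM in AAV8-IGFBP1 replicates 1, 2 and 3. In AAV8-Null it was at 0.195 CPM in replicate 4 and at 0 counts in replicates 1, 2 and 3. A source of IGFBP1 in the muscle and the liver-directed source cannot be told apart in this design. AAV8-IGFBP1 replicate 2 stood apart from the rest on the first principal component, at -45.2 against -12.6 to 25.7 in the other 6 libraries, and it had the highest adipocyte marker sum (1460 CPM against 241 to 481 CPM). The fold change of each of the 8 genes is also given without it.

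Dusp7 rose 1.97-fold in the AAV8-IGFBP1 muscle. It was the 1 gene of the 8 that passed edgeR's test (1 higher, 0 lower), where 0.556% of all genes passed in either direction and 0.362% passed as higher. DESeq2 called 2 of the 8, both higher. In either direction it called 3.28% of the 13766 genes it gave an adjusted p (216 higher, 235 lower). With limma-voom 1 of the 8 was called, also higher, beside 0.415% of all genes in either direction. At an unadjusted p under 0.05 edgeR counted 3 of the 8, beside 12.6% of all genes, adding Dusp6 as higher and Dusp16 as lower. These 3 genes were also the ones whose groups did not overlap, as was seen for 12.3% of all genes. Of the 8 log2 fold changes 5 lay above 0 and 3 below, with a median of 0.29, and 49.9% of all genes lay above 0. Since the genes were chosen on this comparison, nothing is read from these shares.

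**Figure D1:**
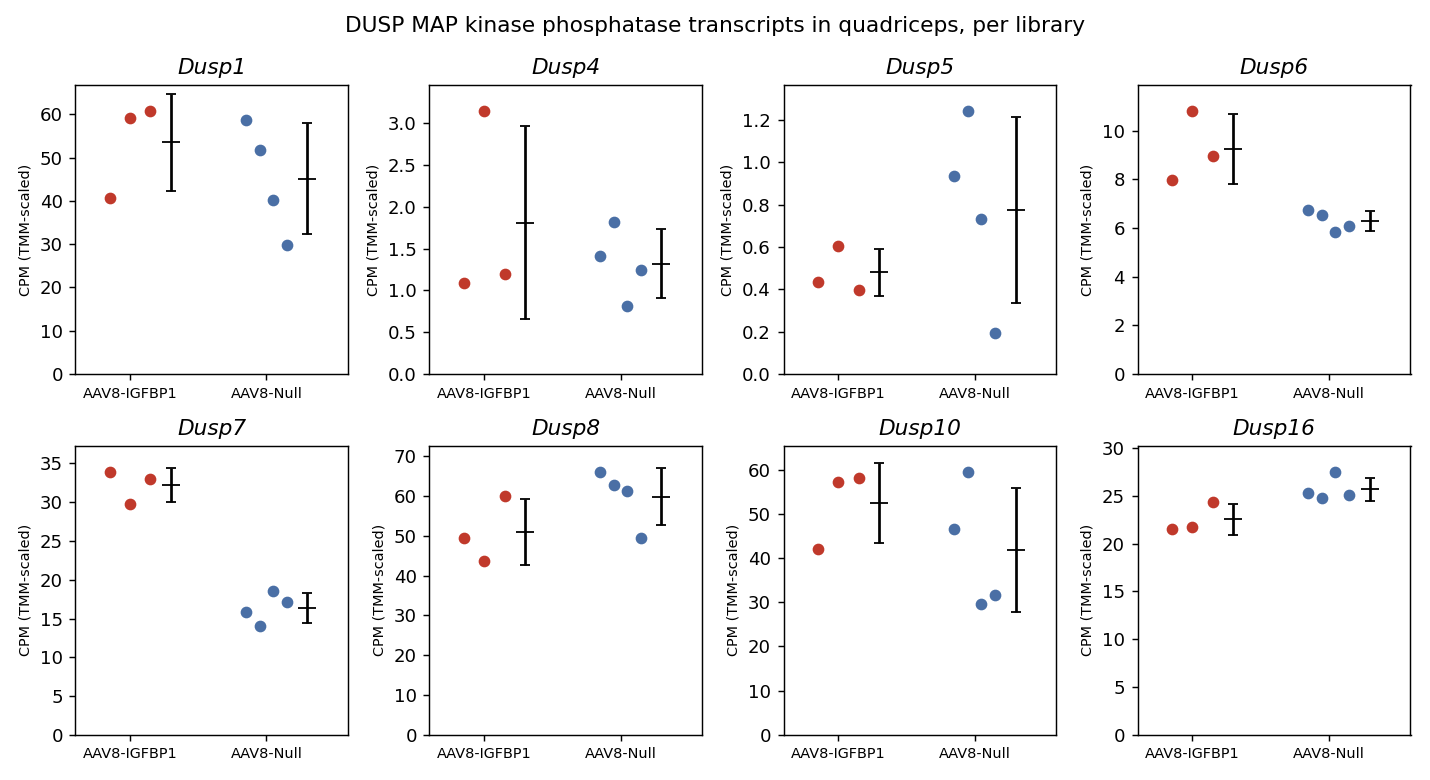
Level of each of the 8 DUSP transcripts (CPM after TMM scaling, vertical axis from 0) in the 3 AAV8-IGFBP1 libraries (red) and the 4 AAV8-Null libraries (blue). Points are libraries, and the black marks beside them are the group mean and SD. Dusp7 lies at 29.8 to 33.9 CPM in AAV8-IGFBP1 and at 14.0 to 18.5 CPM in AAV8-Null, while Dusp1, Dusp4, Dusp5, Dusp8 and Dusp10 overlap between the groups.

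Dusp7 encodes a cytoplasmic phosphatase of ERK, also called MKP-X. Its level was 33.9, 29.8 and 33.0 CPM (1562, 1230 and 1488 counts) in AAV8-IGFBP1 replicates 1, 2 and 3, against 15.9, 14.0, 18.5 and 17.1 CPM (704 to 800 counts) in AAV8-Null replicates 1 to 4. The lowest AAV8-IGFBP1 library was well above the highest AAV8-Null library, and the libraries within each group lay close together. The means were 32.2 ± 2.18 CPM in AAV8-IGFBP1 and 16.4 ± 1.94 CPM in AAV8-Null (SD, n = 3 and 4; log2 fold change 0.98, SE 0.10, adjusted p = 0.00639 by edgeR). By unadjusted p it was number 3 among all 14935 genes. With each of the 7 libraries left out in turn the log2 fold change ran from 0.91 to 1.04 and the edgeR adjusted p from 0.00646 to 0.0271. Leaving out AAV8-IGFBP1 replicate 2 gave 1.03 (adjusted p = 0.00911 by edgeR). In GENCODE release M21, no exon of another gene overlaps an exon of Dusp7 or Dusp6.

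Dusp6 encodes MKP-3, the closest relative of the Dusp7 product and itself a known feedback gene of ERK signalling. It had 7.99, 10.8 and 8.95 CPM in AAV8-IGFBP1 replicates 1, 2 and 3, against 6.76, 6.52, 5.84 and 6.09 CPM in AAV8-Null replicates 1 to 4. All 3 AAV8-IGFBP1 libraries were higher than all 4 AAV8-Null libraries, with replicate 2 the highest. The means were 9.23 ± 1.41 CPM in AAV8-IGFBP1 and 6.30 ± 0.413 CPM in AAV8-Null (SD, n = 3 and 4). The log2 fold change was 0.55 (SE 0.12), and the gene missed the threshold with edgeR (adjusted p = 0.0796). It passed with the DESeq2 Wald test (adjusted p = 0.00639) and with edgeR run without a count filter (adjusted p = 0.00721). Over the 17 alternatives tried its log2 fold change stayed between 0.43 and 0.64 and its adjusted p between 0.00639 and 0.265. Leaving out AAV8-IGFBP1 replicate 2, where adipocyte markers were high, it had a log2 fold change of 0.43 (adjusted p = 0.223 by edgeR).

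The start regions of Dusp7 and Dusp6 are shown because these 2 genes had the highest log2 fold changes of the 8. Each line holds the 250 bases before and 50 bases after the annotated start, from RefSeq on build GRCm38.p6, read 5′ to 3′ on the gene's own strand. Capitals mark a CCAAT box, which is CCAAT or its reverse complement ATTGG, and TGACG or its reverse complement, the core of the cyclic AMP response element.
Dusp7, chr9:106368382-106368681, + strand: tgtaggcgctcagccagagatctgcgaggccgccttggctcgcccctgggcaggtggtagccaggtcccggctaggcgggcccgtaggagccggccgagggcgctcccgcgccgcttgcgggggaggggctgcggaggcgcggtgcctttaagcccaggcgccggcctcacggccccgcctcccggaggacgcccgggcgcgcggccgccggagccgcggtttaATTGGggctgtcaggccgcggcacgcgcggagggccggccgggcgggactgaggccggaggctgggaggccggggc
Dusp6, chr10:99262981-99263280, + strand: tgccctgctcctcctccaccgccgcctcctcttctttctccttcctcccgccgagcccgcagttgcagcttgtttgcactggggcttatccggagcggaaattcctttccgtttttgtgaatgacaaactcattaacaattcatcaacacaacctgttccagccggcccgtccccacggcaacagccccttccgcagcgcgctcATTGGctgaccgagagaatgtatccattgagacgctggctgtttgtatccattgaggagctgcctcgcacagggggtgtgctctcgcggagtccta
The Dusp7 window is 78.7% G or C with 41 CpG dinucleotides, against 57.3% and 19 for Dusp6 and a median of 52.7% and 7 over all 32851 windows of the same length. Each of the pair held 1 CCAAT box, first base at -26 in Dusp7 and at -46 in Dusp6 relative to the start, and 37.4% of all windows held at least 1. Neither held the core TGACG (20.8% of all windows), the full element TGACGTCA (1.79%) or an AP-1 site TGANTCA (7.81%). Also absent from both were an ETS site spelled CCGGAAG (8.86%) and an E-box CACGTG (7.15%), with both strands searched. The core TGACG lies within the full element, so those counts overlap. Shorter spellings of an ETS site were not searched for. A GC box, GGGCGG, was found in the Dusp7 window at 15 bases after the start and in none of the 300 bases of Dusp6 (35.7% of all windows). These matches describe the letters only.

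Dusp1 encodes MKP-1, a nuclear phosphatase of p38, JNK and ERK and a classical immediate early and glucocorticoid-induced gene. Its level was 40.7, 59.1 and 60.7 CPM in AAV8-IGFBP1 replicates 1, 2 and 3, against 58.7, 51.8, 40.3 and 29.7 CPM in AAV8-Null replicates 1 to 4. The groups overlapped over most of their range. The means were 53.5 ± 11.1 CPM in AAV8-IGFBP1 and 45.1 ± 12.8 CPM in AAV8-Null (SD, n = 3 and 4), with a log2 fold change of 0.24 (SE 0.26, adjusted p = 0.768 by edgeR). That value moved with single libraries, to 0.41 without AAV8-IGFBP1 replicate 1, 0.17 without its replicate 2, 0.14 without its replicate 3, 0.40 without AAV8-Null replicate 1 and 0.09 without its replicate 4. Only 11 bases of its exons overlap an exon of a neighbour on the opposite strand, Ergic1 (log2 fold change 0.11, adjusted p = 0.510 by edgeR).

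Dusp10 encodes MKP-5, which acts on JNK and p38. It had 42.1, 57.3 and 58.2 CPM in AAV8-IGFBP1 replicates 1, 2 and 3, against 46.5, 59.5, 29.6 and 31.7 CPM in AAV8-Null replicates 1 to 4. Here too the groups overlapped, and AAV8-Null replicate 2 was the highest library of all. The means were 52.5 ± 8.99 CPM in AAV8-IGFBP1 and 41.8 ± 14.0 CPM in AAV8-Null (SD, n = 3 and 4), a log2 fold change of 0.33 (SE 0.28, adjusted p = 0.698 by edgeR). It was 0.26 without AAV8-IGFBP1 replicate 2, and leaving out AAV8-Null replicate 2, 3 or 4 gave 0.55, 0.19 or 0.21.

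Dusp1 and Dusp10 varied together among libraries of the same group. As deviations of log2 CPM from the group mean, Dusp1 stood at -0.37, 0.17 and 0.20 in AAV8-IGFBP1 replicates 1 to 3 and at 0.43, 0.25, -0.12 and -0.56 in AAV8-Null replicates 1 to 4. Dusp10 stood at -0.30, 0.14 and 0.16 in the same AAV8-IGFBP1 libraries and at 0.21, 0.57, -0.44 and -0.34 in the AAV8-Null libraries. The sign was the same in 7 of 7 libraries, as it also was for Dusp4 and Dusp6. With each gene centred over the 7 libraries, this pair differed by a mean of 0.18 log2 units, the next to smallest value of the 28 pairs. Dusp8 and Dusp16 had the smallest (0.13) and Dusp5 and Dusp7 the largest (0.98). Genes of small spread lie close by this measure. Other genes also lay nearer to each of Dusp1 and Dusp10 than the 2 lay to each other. The nearest were Zc3h12a for Dusp1 (0.118) and Dph1 for Dusp10 (0.133), so the pattern is not particular to the pair. The start regions of Dusp1 and Dusp10 are shown because of that shared pattern, marked as above.
Dusp1, chr17:26508423-26508722, - strand: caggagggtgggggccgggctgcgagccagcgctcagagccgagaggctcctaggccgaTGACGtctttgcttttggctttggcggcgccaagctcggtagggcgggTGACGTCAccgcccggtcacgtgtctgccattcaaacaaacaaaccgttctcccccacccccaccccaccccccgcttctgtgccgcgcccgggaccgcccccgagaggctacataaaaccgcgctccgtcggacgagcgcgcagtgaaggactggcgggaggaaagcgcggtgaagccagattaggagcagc
Dusp10, chr1:184034131-184034430, + strand: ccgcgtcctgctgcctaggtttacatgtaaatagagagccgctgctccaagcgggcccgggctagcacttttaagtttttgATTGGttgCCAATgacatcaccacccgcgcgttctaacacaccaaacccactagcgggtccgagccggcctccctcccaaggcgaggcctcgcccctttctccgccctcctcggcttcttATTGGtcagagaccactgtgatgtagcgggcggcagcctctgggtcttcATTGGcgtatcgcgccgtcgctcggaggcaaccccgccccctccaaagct
The Dusp1 window held the full element TGACGTCA once, first base at -143, and a further core TGACG at -191. No such core was found in the Dusp10 window, which held 4 CCAAT boxes where Dusp1 held 0. Both windows held 3 GC boxes. Among the other windows, Dusp8 held the full element 2 times, at -107 and -63, and Dusp5 and Dusp16 each held 1 core. The table at hand had a window for 7 of the 8 genes.

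**Figure D2:**
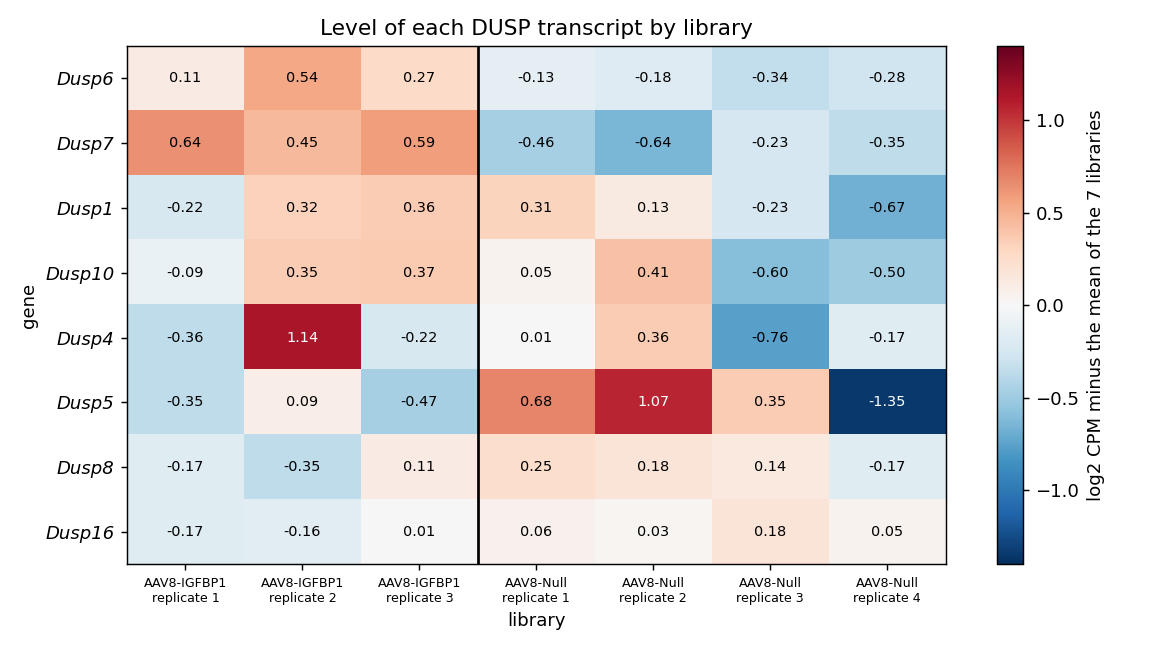
Level of each DUSP transcript (rows) in each library (columns, AAV8-IGFBP1 left of the black line and AAV8-Null right of it), as log2 CPM minus the mean of the 7 libraries. Red is above and blue below that mean. Dusp7 is above it in 3 of 3 AAV8-IGFBP1 libraries (0.45 to 0.64) and below it in 4 of 4 AAV8-Null libraries (-0.64 to -0.23). Dusp1 and Dusp10 share a pattern that crosses the groups.

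The other nuclear enzymes, Dusp4 and Dusp5, had few counts and a wide spread. Dusp4, which encodes MKP-2, was at 1.09, 3.14 and 1.20 CPM (50, 130 and 54 counts) in AAV8-IGFBP1 replicates 1, 2 and 3, against 1.41, 1.82, 0.812 and 1.24 CPM in AAV8-Null replicates 1 to 4. The single high value was AAV8-IGFBP1 replicate 2, and the other 2 libraries of that group lay within the AAV8-Null range. The log2 fold change was 0.44 (SE 0.42, adjusted p = 0.728 by edgeR) and turned to -0.22 without AAV8-IGFBP1 replicate 2 (adjusted p = 0.861 by edgeR). Without AAV8-IGFBP1 replicate 1 it was 0.70, without its replicate 3 it was 0.66, and without AAV8-Null replicate 3 it was 0.27. AAV8-IGFBP1 replicate 2 also had the highest sum of the 7 adipocyte markers, none of them at 0 in any library, and the part of those cells in the Dusp4 value was not tested. In bulk tissue, fewer cells of a type and less RNA per cell cannot be told apart.

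Dusp5 encodes a nuclear phosphatase specific to ERK. It had 0.434, 0.605 and 0.399 CPM (20, 25 and 18 counts) in AAV8-IGFBP1 replicates 1, 2 and 3, against 0.934, 1.24, 0.733 and 0.195 CPM (47, 64, 28 and 8 counts) in AAV8-Null replicates 1 to 4. The AAV8-IGFBP1 libraries lay below 3 of the AAV8-Null libraries and above AAV8-Null replicate 4. The log2 fold change was -0.71 (SE 0.51, adjusted p = 0.623 by edgeR), with -0.91 when AAV8-IGFBP1 replicate 2 was left out. Leaving out AAV8-Null replicate 2 or 4 instead gave -0.39 or -1.02. A predicted gene on the opposite strand shares 547 bases with its exons. The sources used here do not give the strand setting of the counting, so the reads of Dusp5 are uncertain.

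Dusp8 and Dusp16, the other enzymes that act on JNK and p38, were slightly lower on average in AAV8-IGFBP1 and did not pass the test. Dusp8 had 49.3, 43.6 and 60.0 CPM in AAV8-IGFBP1 replicates 1, 2 and 3, against 66.0, 62.8, 61.1 and 49.4 CPM in AAV8-Null replicates 1 to 4. Replicate 3 of AAV8-IGFBP1 and replicate 4 of AAV8-Null put the groups into overlap (log2 fold change -0.23, SE 0.13, adjusted p = 0.509 by edgeR). The value was -0.13 without AAV8-IGFBP1 replicate 2, the lowest library for this gene, and -0.37 without AAV8-IGFBP1 replicate 3. A predicted gene on the opposite strand shares 66 bases with the exons of Dusp8, with the same limit as for Dusp5. Dusp16, which encodes MKP-7, had 21.5, 21.7 and 24.4 CPM in AAV8-IGFBP1 replicates 1, 2 and 3, against 25.3, 24.8, 27.5 and 25.1 CPM in AAV8-Null replicates 1 to 4. The Dusp16 groups did not overlap, but the nearest libraries were 24.4 and 24.8 CPM. Its log2 fold change of -0.19 (SE 0.07) had an edgeR adjusted p of 0.325, and it was -0.16 without AAV8-IGFBP1 replicate 2.

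**Figure D3:**
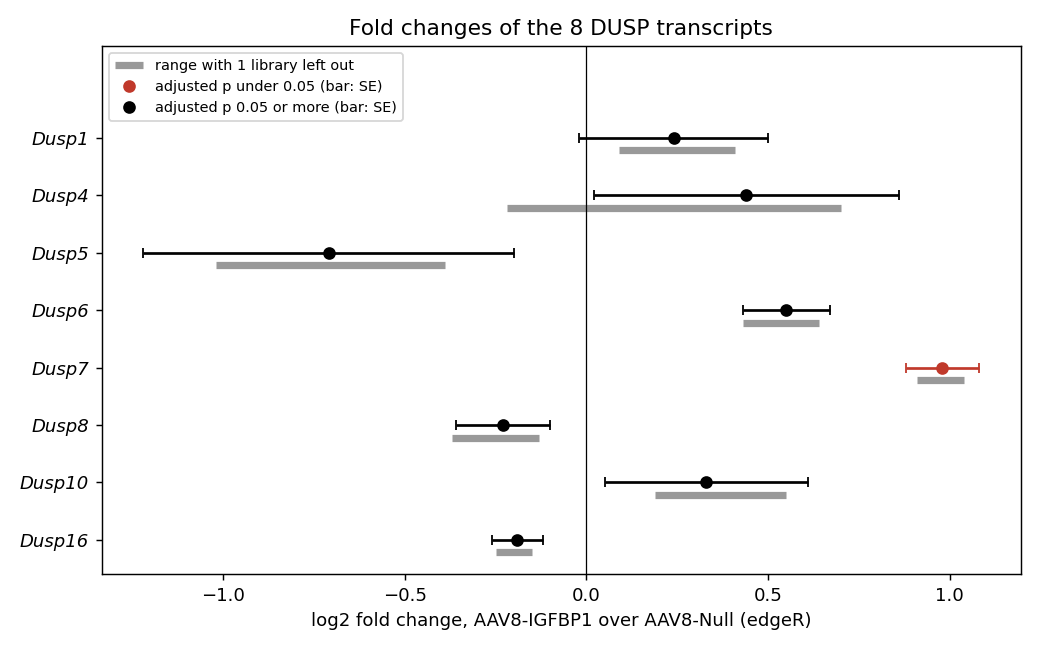
Log2 fold change of each DUSP transcript, AAV8-IGFBP1 over AAV8-Null, from edgeR (horizontal axis; genes down the page). Points with bars are the fit on all 7 libraries with its SE, red where the adjusted p is under 0.05, and grey bars span the fits with 1 library left out. Dusp7 stays at 0.91 to 1.04 and Dusp6 at 0.43 to 0.64, while the grey bar of Dusp4 crosses 0 (-0.22 to 0.70).

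The spread within groups differed among the 8 genes. Pooled over both groups, the SD of log2 CPM was 0.85 for Dusp5, 0.64 for Dusp4, 0.40 for Dusp10, 0.39 for Dusp1, 0.20 for Dusp8, 0.15 for Dusp6, 0.15 for Dusp7 and 0.08 for Dusp16, against a median of 0.17 over all genes tested. The first 4 of these lay at or above 80.9% of all genes and Dusp16 at 17.2%. The low counts of Dusp5 and Dusp4 add counting error to their spread, while Dusp1 (1220 to 2956 counts) and Dusp10 (1129 to 3076 counts) were well covered.

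Levels can be set side by side between genes only per length, here CPM per kilobase of merged exon in GENCODE M21, an annotation of an earlier build than the counts. On that scale Dusp10 was at 17.3 ± 2.96 in AAV8-IGFBP1 and 13.7 ± 4.60 in AAV8-Null, and Dusp1 at 16.2 ± 3.35 in AAV8-IGFBP1 and 13.6 ± 3.87 in AAV8-Null (SD, n = 3 and 4 throughout). These 2 neighbours in the order did not differ beyond their spread. Dusp8 was at 10.5 ± 1.71 in AAV8-IGFBP1 and 12.3 ± 1.48 in AAV8-Null, and Dusp7 at 9.59 ± 0.650 in AAV8-IGFBP1 and 4.89 ± 0.578 in AAV8-Null. Dusp7 was thus within the spread of Dusp8 in AAV8-IGFBP1, while in AAV8-Null it lay below Dusp8 by several SDs. Dusp6 (2.95 ± 0.450 in AAV8-IGFBP1, 2.01 ± 0.132 in AAV8-Null) and Dusp16 (2.90 ± 0.205 in AAV8-IGFBP1, 3.30 ± 0.159 in AAV8-Null) formed the next pair. Dusp4 (0.661 ± 0.423 in AAV8-IGFBP1, 0.482 ± 0.152 in AAV8-Null) and Dusp5 (0.194 ± 0.0445 in AAV8-IGFBP1, 0.313 ± 0.178 in AAV8-Null) were the lowest.

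Profiles most like Dusp7 were looked for among 10128 named genes whose mean log2 CPM was 1 or more, by the mean absolute difference of centred log2 CPM over the 7 libraries. The nearest were Chd6, a chromatin remodeller gene (0.080 log2 units, log2 fold change 0.87, adjusted p = 0.00639 by edgeR), and Cep85l, a centrosomal protein gene (0.084, log2 fold change 0.81, adjusted p = 0.00729 by edgeR). Next came Per3, a circadian clock gene (0.098, log2 fold change 0.85, adjusted p = 0.0225 by edgeR). A gene with a like difference between the groups has a like profile by construction, so the likeness adds nothing to the call of Dusp7.

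Around the 8 genes, 12 lists of pathway genes with 153 tested members held 0 genes that passed edgeR's test, beside 0.556% of all genes. Of the 153, 8 lay higher and 17 lower at an unadjusted p under 0.05, or 16.3% against 12.6% of all genes. limma-voom called 0. DESeq2 called 5 of the 149 it gave an adjusted p, or 3.36%, near its 3.28% of all genes. Its calls were Mapkapk3 and Klf9 as higher and Ccnd1, Ier5 and Phlda1 as lower (Phlda1 picked after its values were seen). Mapkapk3, which encodes a kinase activated by p38, had 46.7, 41.7 and 47.4 CPM in AAV8-IGFBP1 replicates 1, 2 and 3, against 34.1, 35.4, 38.0 and 34.0 CPM in AAV8-Null replicates 1 to 4. Its groups did not overlap, and its log2 fold change was 0.36 (SE 0.07, adjusted p = 0.0635 by edgeR). These lists were drawn up with earlier results of the comparison known.

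The kinases of the cascade itself had small fold changes. The 12 tested MAP kinases had a median log2 fold change of -0.06 (range -0.43 to 0.40), the 7 MAP kinase kinases a median of 0.00 (-0.15 to 0.09) and the 19 MAP kinase kinase kinases a median of -0.02 (-0.32 to 0.20), beside a median of -0.0007 over all genes. Mapk14, which encodes p38 alpha, had 142, 133 and 146 CPM in AAV8-IGFBP1 replicates 1, 2 and 3, against 125, 132, 129 and 128 CPM in AAV8-Null replicates 1 to 4. That made a log2 fold change of 0.12 (adjusted p = 0.396 by edgeR), and Mapk12, the p38 gamma gene of muscle, had -0.19 (adjusted p = 0.382 by edgeR). Of the remaining genes the rule named, the MAP kinase kinase genes Map2k6 and Map2k2 had log2 fold changes of -0.15 and 0.09 (adjusted p = 0.491 and 0.688 by edgeR). Map3k14 and Braf, from the list of MAP kinase kinase kinases, had -0.29 and 0.20 (adjusted p = 0.376 and 0.443 by edgeR). The 17 Ras activators and adaptors had a median of -0.06, with Gab1, an adaptor of growth factor receptors, at 0.30 (adjusted p = 0.176 by edgeR) and the low-count Rasgrp1, a Ras exchange factor gene, at 1.49 (adjusted p = 0.187 by edgeR). Among 14 MAP kinase-activated kinases and scaffolds (median 0.03), Mknk1, which encodes a kinase of a translation factor, had 0.20 (adjusted p = 0.233 by edgeR).

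Of 15 tested genes of ERK feedback and ERK induction, the class to which Dusp6 belongs, 4 had a log2 fold change above 0 and 11 below (median -0.21). At an unadjusted edgeR p under 0.05 there were 5 of the 15, beside 12.6% of all genes. Among these, Etv5 was higher (log2 fold change 0.26), while Ccnd1, Etv4, Phlda1 and Spred3 were lower. The cyclin gene Ccnd1 had 5.25 ± 0.709 CPM in AAV8-IGFBP1 and 8.19 ± 1.59 CPM in AAV8-Null (SD, n = 3 and 4), with a log2 fold change of -0.64 (adjusted p = 0.138 by edgeR). Etv4, an ETS factor gene, had -0.64 (adjusted p = 0.307 by edgeR). Spry2 and Spry4, which encode ERK pathway inhibitors of the sprouty family and were picked after their values were seen, overlapped between the groups. Spry2 lay at 7.79 to 8.73 CPM in AAV8-IGFBP1 and 7.52 to 9.22 CPM in AAV8-Null, and Spry4 at 2.80 to 4.72 CPM in AAV8-IGFBP1 and 3.02 to 6.23 CPM in AAV8-Null.

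Immediate early genes, the class to which Dusp1 belongs, had 2 of 25 log2 fold changes above 0 and 23 below, with a median of -0.63 and a wide spread between libraries. Ier5 had 6.44 ± 0.683 CPM in AAV8-IGFBP1 and 10.3 ± 2.03 CPM in AAV8-Null (SD, n = 3 and 4; log2 fold change -0.68, adjusted p = 0.126 by edgeR). Atf3, a stress-induced transcription factor gene, had 1.80, 1.86 and 6.18 CPM in AAV8-IGFBP1 replicates 1, 2 and 3, against 8.51, 9.65, 9.46 and 7.84 CPM in AAV8-Null replicates 1 to 4 (log2 fold change -1.43, adjusted p = 0.292 by edgeR). Egr1, picked after its values were seen, shows the spread: 4.60, 19.5 and 31.7 CPM in AAV8-IGFBP1 replicates 1, 2 and 3, against 48.1, 122, 16.1 and 6.43 CPM in AAV8-Null replicates 1 to 4. AAV8-IGFBP1 replicate 1 was lowest of its group for Egr1, Dusp1, Dusp10, Dusp4, Dusp6 and Dusp16. AAV8-Null replicates 1 and 2 were the 2 highest of theirs for Egr1, Dusp1, Dusp10, Dusp4, Dusp6, Dusp5 and Dusp8.

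**Figure D4:**
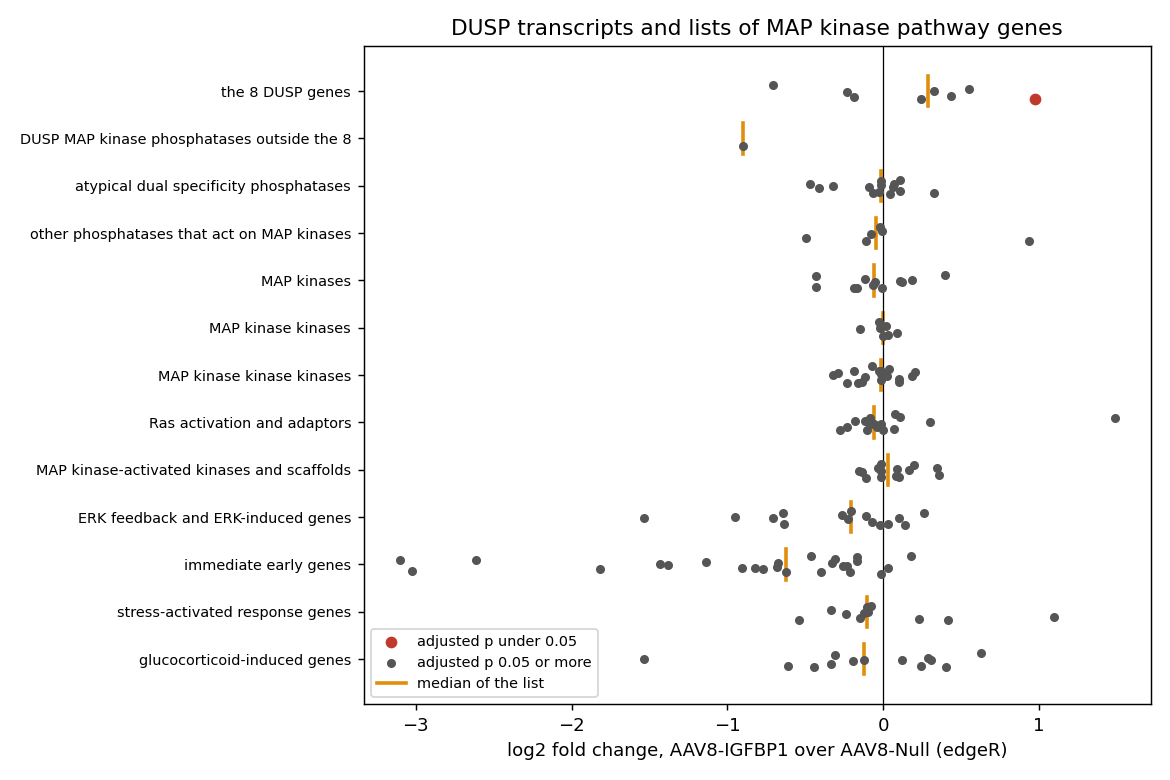
Log2 fold change of each tested gene, AAV8-IGFBP1 over AAV8-Null from edgeR (horizontal axis), for the 8 DUSP genes and 12 lists of pathway genes (rows). Each point is a gene, red where the adjusted p is under 0.05, and the orange bar is the median of the list. Dusp7 is the 1 red point, and the immediate early genes reach from -3.10 to 0.18.

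Other phosphatases gave no call. Of 14 tested atypical DUSP genes, small phosphatases that lack the MAP kinase binding domain, 6 lay above 0 and 8 below (median -0.01, range -0.47 to 0.32). Among the 14, 1 had an unadjusted edgeR p under 0.05, beside 12.6% of all genes. Dupd1, a muscle-enriched member, had 29.6, 21.2 and 30.8 CPM in AAV8-IGFBP1 replicates 1, 2 and 3, against 35.7, 41.8, 44.3 and 29.1 CPM in AAV8-Null replicates 1 to 4 (log2 fold change -0.47, adjusted p = 0.351 by edgeR). Dusp26 had a log2 fold change of -0.41 (adjusted p = 0.468 by edgeR). The 6 tested phosphatases of other families that act on MAP kinases had a median of -0.05, with Ptpn7 at 0.94 (adjusted p = 0.417 by edgeR) and Ptprr at -0.49 (adjusted p = 0.606 by edgeR), both under 1 CPM on average in each group. Of 11 stress-activated genes (median -0.10), Gadd45a, a growth arrest gene, had 0.41 (adjusted p = 0.325 by edgeR) and Ddit3, a factor gene of the unfolded protein response, had -0.34 (adjusted p = 0.426 by edgeR). Of 13 glucocorticoid-induced genes, relevant to Dusp1, the median was -0.13, with the transcription factor gene Klf9 at 0.41 (adjusted p = 0.0711 by edgeR) and Fkbp5, which encodes a glucocorticoid receptor cochaperone, at -0.44 (adjusted p = 0.378 by edgeR).

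Markers of cell types that quadriceps can hold differed between the groups without overlap in 2 of 10 lists as sums of CPM, and in 4 of 10 as levels (the mean over a list's tested genes of log2 CPM centred over the 7 libraries, which weights each gene alike). All 4 were lower in AAV8-IGFBP1. Satellite cell markers (7 of 7 detected, 6 tested) summed to 18.9 to 20.5 CPM in AAV8-IGFBP1 and 32.2 to 43.4 CPM in AAV8-Null, with levels of -0.43 to -0.29 in AAV8-IGFBP1 and 0.13 to 0.46 in AAV8-Null. Most of the satellite cell sum came from Sdc4 (14.6 CPM on average in AAV8-IGFBP1, 28.9 CPM in AAV8-Null). Among the 6 tested genes 6 had a log2 fold change below 0, and 3 had groups that did not overlap, beside 12.3% of all genes. Myf5 and Chrdl2 were among those that overlapped. Schwann cell markers (7 of 7) summed to 30.8 to 36.1 CPM in AAV8-IGFBP1 and 37.8 to 56.0 CPM in AAV8-Null, with levels of -0.43 to -0.20 in AAV8-IGFBP1 and -0.02 to 0.39 in AAV8-Null. Smooth muscle and pericyte markers (8 of 8) had sums that overlapped, at 449 to 481 CPM in AAV8-IGFBP1 and 453 to 518 CPM in AAV8-Null, while their levels did not, at -0.36 to -0.22 in AAV8-IGFBP1 and 0.06 to 0.43 in AAV8-Null. Most of that sum came from Rgs5 (166 CPM on average in AAV8-IGFBP1, 178 CPM in AAV8-Null) and Abcc9 (246 CPM in AAV8-IGFBP1, 222 CPM in AAV8-Null). Endothelial levels (9 of 9) were apart by 0.012 log2 units, at -0.09 to -0.05 in AAV8-IGFBP1 and -0.04 to 0.21 in AAV8-Null, and their sums overlapped (239 to 250 CPM in AAV8-IGFBP1, 239 to 299 CPM in AAV8-Null).

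Over all genes, 0.556% passed edgeR's test and 0.194% passed as lower. Of the 77 marker genes tested, 2 passed it, both lower in AAV8-IGFBP1. They were Tagln, a smooth muscle actin-binding protein gene, at 5.68 ± 0.614 CPM in AAV8-IGFBP1 and 12.2 ± 1.61 CPM in AAV8-Null (SD, n = 3 and 4; log2 fold change -1.10, adjusted p = 0.00778 by edgeR), and the syndecan gene Sdc4 of the satellite cell list, at 14.6 ± 0.585 CPM in AAV8-IGFBP1 and 28.9 ± 5.15 CPM in AAV8-Null (SD, n = 3 and 4; log2 fold change -0.99, adjusted p = 0.0162 by edgeR). The smooth muscle actin gene Acta2 had a log2 fold change of -1.20 and missed the threshold (adjusted p = 0.0780 by edgeR). Of the 8 smooth muscle and pericyte genes, 6 had an unadjusted edgeR p under 0.05, beside 12.6% of all genes. Those 6 were not all lower, since Abcc9 among them was higher in AAV8-IGFBP1 (log2 fold change 0.15). By sign, 6 of the 8 lay below 0 and 2 above.

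Both groups overlapped in sum and level for the other 6 lists. Slow fibre markers (8 of 8) summed to 282 to 897 CPM in AAV8-IGFBP1 and 657 to 2030 CPM in AAV8-Null, and fibro-adipogenic progenitor markers (8 of 8) to 566 to 933 CPM in AAV8-IGFBP1 and 883 to 1220 CPM in AAV8-Null. In each of these 2 lists 8 of 8 log2 fold changes lay below 0, as did 7 of 7 for tenocyte markers. The medians were -1.44 for slow fibre, -0.45 for fibro-adipogenic progenitor and -0.51 for tenocyte markers. For adipocyte markers 7 of 7 lay above 0, with a median of 1.06. Macrophage markers summed to 54.2 to 99.1 CPM in AAV8-IGFBP1 and 65.5 to 103 CPM in AAV8-Null, tenocyte markers to 76.9 to 273 CPM in AAV8-IGFBP1 and 165 to 343 CPM in AAV8-Null, and adipocyte markers to 302 to 1460 CPM in AAV8-IGFBP1 and 241 to 481 CPM in AAV8-Null. The part of any of these lists in the Dusp7 and Dusp6 values was not tested.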

How the data were processed

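Estimated counts, deposited by the authors as 1 table with a row per gene symbol, covered 7 quadriceps libraries, 3 AAV8-IGFBP1 and 4 AAV8-Null, grouped by their titles. The submitters' processing notes list STAR 2.7.9a, Salmon 1.10.1, Trim Galore 0.6.7, cutadapt 3.4, R 4.2.2 and genome build GRCm39, without their roles. Annotation release and strand setting are not given in the sources used here. The labels' protocols name the RNeasy Mini Kit for total RNA and the Universal Plus mRNA-Seq kit for libraries.

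These values were rounded to whole numbers. All genes were tested with edgeR 4.0.16 in R 4.3.3: filterByExpr (minimum count 10, minimum total 15), TMM scaling, estimateDisp, glmQLFit with robust TRUE and glmQLFTest on group, with Benjamini-Hochberg adjustment over 14935 genes and a threshold of 0.05. SEs are the log2 fold change over the square root of F. A prior count of 2 was used for log2 CPM. Floors allow 3 counts and cover counting error only. Libraries within a group differed beyond sampling noise (chi-square of 22.2 to 60.0 per degree of freedom), so none was merged. The fit was tested on simulated data. It recovered 39.6% of 1.5-fold, 63.3% of 2-fold and 93.2% of 4-fold changes, and 6.14% of its calls were false. A gene that did not pass may therefore still differ.

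The 8 genes and all lists were chosen with earlier results of these data known. Genes named are the 8, Dusp2 and Dusp9, up to 4 passing genes per list or the 2 with the lowest unadjusted p, and the 3 profiles most like a passing gene. Alternatives were DESeq2 1.42.0, limma 3.58.1 voom with and without quality weights, 3 other scalings, 2 other filters, robust FALSE, the replicate number as a block, a looser threshold (0.1) and each library left out in turn.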

Additional observations from a re-analysis of the deposited data

How the results depend on the processing

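Dusp7 passed under all 17 alternatives, with a log2 fold change of 0.91 to 1.04 and an adjusted p of 1.54e-14 to 0.0463. The highest adjusted p came from edgeR with the replicate number as a block, on the 6 libraries whose numbers both groups share, where 19 genes were called (14 higher, 5 lower) and 1 of the 8 DUSP genes. The labels do not state that the numbers pair the libraries. Deviations of same-numbered libraries correlated at -0.10, 0.07 and -0.06. Differently numbered libraries were not compared, so these values cannot exclude a pairing. The fit on all 7 libraries called 83 genes, 54 higher and 29 lower. The DESeq2 Wald test called 451 (216 higher, 235 lower), edgeR without a count filter 306 (155 higher, 151 lower) and edgeR at a threshold of 0.1 215 (111 higher, 104 lower). Each of these 3 called 2 of the 8 DUSP genes, both higher. Genes with an adjusted p numbered 13766, 27257 and 14935 in these 3 settings, in that order. limma-voom called 18 genes as lower. With 1 library left out, the count of genes ran from 19 to 86, with 16 to 46 higher and 3 to 40 lower. Leaving out AAV8-IGFBP1 replicate 1 gave 28 and its replicate 2 gave 23, while leaving out replicate 1 of AAV8-Null gave 19 and its replicate 3 gave 52. Dusp7 was the 1 DUSP gene called in each of those 7 fits. The sign of Dusp4 turned without AAV8-IGFBP1 replicate 2 (log2 fold change -0.22, edgeR adjusted p = 0.861; range -0.22 to 0.70 with 1 library left out), and the cause was not tested. Signs of the other 7 genes held under every alternative. Dusp5 was removed by the stricter filter (50 counts in 3 libraries). At 8 to 64 counts, depth limits what can be seen for Dusp5.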
